A study of Mus musculus with 27 samples.

Results

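The oligodendrocyte precursor genes are 10 protein-coding genes, Olig1, Olig2, Sox10, Pdgfra, Cspg4, Lhfpl3, Pcdh15, Matn4, Neu4 and Gpr17, named as markers of the cells that give rise to oligodendrocytes in the adult brain. They were taken by symbol, each matched 1 Ensembl gene of the raw count table, and they are 10 of 45195 genes counted. The study followed adult neurogenesis of the mouse in 27 polyadenylated mRNA libraries of 10 groups. Male mice of 8 to 12 weeks, on a C57BL/6 background, carried a tamoxifen-inducible Cre recombinase (CreER), an eYFP reporter and RiboTag, an Rpl22 allele that gains an HA epitope in cells where Cre has acted. CreER was driven by Tlx (Nr2e1) in the TiCRY line and by Dcx in the DiCRY line, and tamoxifen was given by mouth at 200 mg per kg. In a line of this kind, eYFP and HA mark the cells in which the promoter was active and whatever those cells became.

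For total mRNA, 200 to 500 cells positive for eYFP were sorted from 1 to 2 mice per replicate. There are 3 libraries each of neural stem cells (NSC, TiCRY, subventricular zone, SVZ), early neuroblasts (ENB, DiCRY, SVZ), late neuroblasts (LNB, DiCRY, olfactory bulb, OB) and neurons (Neuron, OB, marked Dxc and 4 wpi in the descriptions). Ribosome-bound mRNA was pulled down with an antibody to HA from homogenised tissue with no cell sorting, except as given below for Neuron. It has 2 libraries of NSC (TiCRY, marked 4 d), 2 of ENB and 3 of LNB (DiCRY, marked 3 dp or dpi), and 2 of Neuron (marked Dxc and 4 wpi). The no-HA controls, labelled as ribominus and of mixed cell type, went through the same immunoprecipitation without the tag and give its background, 3 from the SVZ and 3 from the OB. Of the SVZ controls replicate 1 is marked TiCRY and 4 d and the other two Cre-negative, and of the OB controls replicates 1 and 2 are marked DiCRY and 3 dpi and replicate 3 Dxc and 4 wpi, so the controls also differ in line and time. For the 2 Neuron immunoprecipitates, title and description set the group. Other entries for them differ: the sample type is total mRNA, and the protocol given is the one for sorted cells. All results on Neuron immunoprecipitates rest on this grouping, which was not tested.

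Oligodendrocyte precursors are dividing glial cells spread through the grey and white matter, and a small fraction arises from stem cells of the SVZ. They depend on platelet-derived growth factor A, read by the receptor Pdgfra, and on the transcription factors Olig1, Olig2 and Sox10, and they turn off Pdgfra and Cspg4 as they mature into myelinating oligodendrocytes. Gpr17 marks the step at which a precursor commits to maturing. None of these genes is restricted to the lineage in the whole brain: Olig2 is also known in dividing progenitors of the SVZ, Pdgfra in fibroblasts, Cspg4 in pericytes and Sox10 in olfactory ensheathing cells.

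Library totals ran from 5225929 to 15994635 counts in total mRNA, from 6325479 to 13316334 counts in ribosome-bound mRNA and from 5960357 to 9120659 counts in the no-HA controls. Levels are given as CPM, library-scaled counts, after scaling by TMM factors over all 27 libraries. In sorted cells the stage markers separated ENB from NSC: Nr2e1 had 14.4, 13.5 and 29.6 CPM in the ENB libraries, against 221, 265 and 332 CPM in the NSC libraries, and 13 of 14 neuroblast genes were higher in ENB than in NSC. NSC replicate 3 had the highest level of all 10 genes among the NSC libraries, and 2 of the 3 LNB libraries stood apart from the other. Neural stem cell genes summed to 4743, 949.6 and 7082 CPM in LNB replicates 1, 2 and 3, against 4364 to 4914 CPM in NSC, and astrocyte genes to 8132, 1323 and 11241 CPM in LNB, against 5703 to 7061 CPM in NSC. In LNB replicates 1 and 3 the sums of these 2 lists were thus within or above the range of NSC. Single genes did not all follow the sums. Nr2e1 had 41.4, 2.69 and 35.1 CPM in LNB replicates 1, 2 and 3, below every NSC library. Neuroblast genes summed to 9837, 15569 and 6176 CPM in LNB, against 3310 to 4428 CPM in NSC. Results that rest on NSC replicate 3 or on LNB libraries are given with and without them.

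The 3 transcription factors were detected in sorted cells at every stage, with the lowest mean level in NSC. Olig1, a basic helix-loop-helix factor of the lineage (chromosome 16, 91269769 to 91271939, GRCm38.p6), had 16.1, 33.1 and 72.5 CPM in the NSC libraries, 208, 150 and 259 CPM in ENB, 284, 65.6 and 569 CPM in LNB, and 223, 307 and 362 CPM in Neuron. Every library of the other 3 groups except LNB replicate 2 stood above the highest NSC library. Olig2, its neighbour 41.1 kb away on the same chromosome, had 8.22, 22.6 and 31.5 CPM in NSC, 56.0, 16.8 and 80.4 CPM in ENB, 106, 15.0 and 171 CPM in LNB, and 37.4, 28.3 and 76.1 CPM in Neuron. Its groups overlapped at each step. Sox10, which acts with Olig2 on myelin genes (chromosome 15, 79154913 to 79164490), had 0, 0.659 and 20.9 CPM in NSC, 67.7, 20.6 and 29.8 CPM in ENB, 30.5, 24.8 and 112 CPM in LNB, and 58.4, 63.0 and 89.8 CPM in Neuron. The 0 counts of Sox10 in NSC replicate 1 allow up to 0.181 CPM (3 counts, counting error only).

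The 2 surface proteins by which precursors are usually recognised were low in NSC. Pdgfra (chromosome 5, 75151322 to 75198206) had 1.03, 2.34 and 10.7 CPM in NSC, 112, 38.8 and 155 CPM in ENB, 60.0, 7.87 and 55.4 CPM in LNB, and 83.2, 55.9 and 175 CPM in Neuron. Cspg4, which encodes the NG2 proteoglycan (chromosome 9, 56865104 to 56899870), had 2.54, 4.61 and 10.4 CPM in NSC, 47.2, 49.0 and 53.9 CPM in ENB, 10.4, 2.11 and 41.0 CPM in LNB, and 50.2, 29.8 and 53.3 CPM in Neuron. The 3 ENB libraries lay close together for Cspg4, whereas the LNB libraries spread from 2.11 to 41.0 CPM.

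In sorted cells the adhesion, membrane and matrix genes had their highest mean level in Neuron, as did Sox10, Pdgfra, Neu4 and Gpr17. Lhfpl3, a tetraspan membrane protein (chromosome 5, 22746054 to 23275597), had 3.08, 0.293 and 6.01 CPM in NSC, 43.0, 26.9 and 55.7 CPM in ENB, 18.4, 17.4 and 30.6 CPM in LNB, and 99.5, 127 and 175 CPM in Neuron. Pcdh15, a protocadherin (chromosome 10, 73096277 to 74649831), had 2.30, 0.732 and 7.57 CPM in NSC, 30.9, 14.9 and 60.0 CPM in ENB, 30.6, 19.4 and 10.6 CPM in LNB, and 159, 94.5 and 108 CPM in Neuron. For both genes each Neuron library was above each library of the other 3 stages. Matn4, a matrilin of the extracellular matrix (chromosome 2, 164389393 to 164405160), had 0.483, 0.366 and 1.56 CPM in NSC, 41.0, 40.6 and 50.2 CPM in ENB, 40.5, 5.46 and 179 CPM in LNB, and 134, 52.3 and 56.1 CPM in Neuron.

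Gpr17 and Neu4 spread widely between libraries of the same stage. Gpr17, a G protein-coupled receptor (chromosome 18, 31942999 to 31949890), had 0, 0.293 and 29.1 CPM in NSC, 188, 77.9 and 66.9 CPM in ENB, 13.4, 90.5 and 391 CPM in LNB, and 264, 187 and 601 CPM in Neuron. Neu4, a sialidase (chromosome 1, 94020493 to 94028334), had 0, 0 and 3.56 CPM in NSC, 46.2, 1.68 and 33.4 CPM in ENB, 0, 18.1 and 63.4 CPM in LNB, and 56.0, 22.8 and 146 CPM in Neuron. Of the 9 libraries of the later stages, LNB replicate 1 alone had 0 counts of Neu4, while it had 284 CPM of Olig1. By gene span, Matn4 overlaps Rbpjl, Gpr17 overlaps Lims2 and Lhfpl3 overlaps A930003O13Rik. Olig2, Pdgfra and Pcdh15 overlap noncoding genes or pseudogenes. The strand setting of the counting is not given in the sources used here, so how reads from any shared stretch were assigned is not known.

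**Figure D1:**
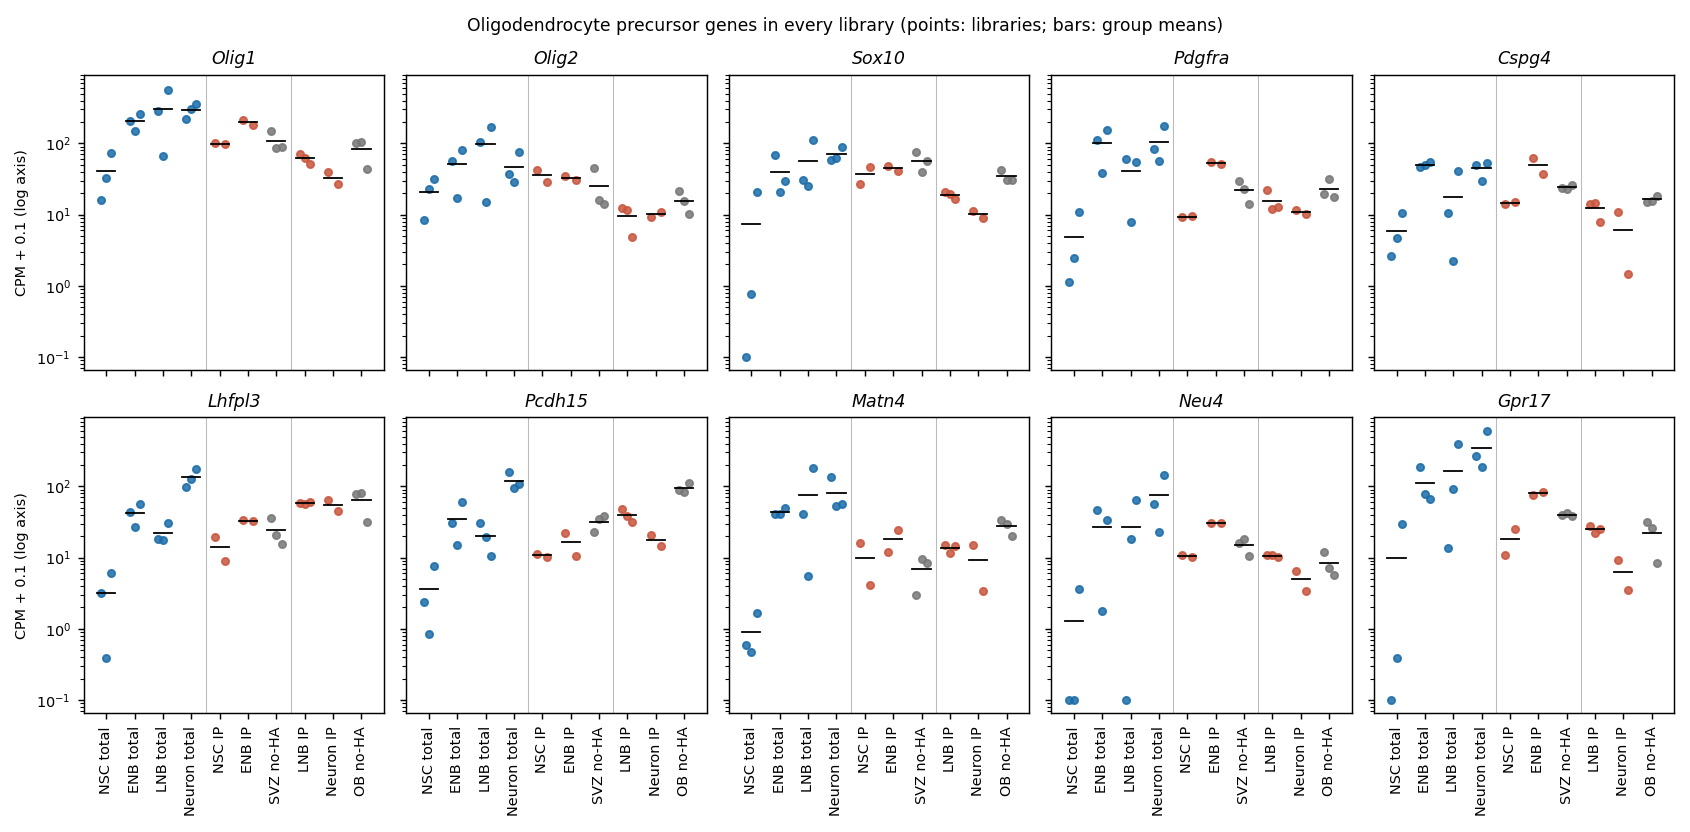
Level of each of the 10 genes in every library (CPM + 0.1 on a log axis; total mRNA in blue, ribosome-bound mRNA, IP, in red, no-HA controls in grey; bars are group means). NSC total mRNA has the lowest mean of the 4 stages for all 10 genes, and the immunoprecipitates and no-HA controls cover a narrower range.

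Per transcript length, Olig1 led. On the scale of the deposited TPM, Olig1 was the highest of the 10 genes in 24 of 27 libraries, Lhfpl3 in 2, both of them Neuron immunoprecipitates, and Pcdh15 in 1, OB control replicate 3. Olig1 ran from 120 to 208 TPM in ENB total mRNA and from 166 to 315 TPM in Neuron total mRNA, where Gpr17 ran from 54.4 to 189 TPM and Cspg4, the lowest by mean, from 4.98 to 10.0 TPM. In NSC total mRNA Olig1 ran from 13.95 to 58.9 TPM and Matn4 from 0 to 1.37 TPM.

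In sorted ENB, 5 of the 10 genes rose relative to NSC and none fell, against 4.95% of all 17592 genes tested that passed in the higher direction and 10.1% in either (edgeR quasi-likelihood test, Benjamini-Hochberg adjusted p under 0.05). Matn4 rose by a log2 fold change of 5.87 ± 1.13 (SE, adjusted p = 0.00928), Pdgfra by 4.49 ± 1.00 (adjusted p = 0.0175) and Lhfpl3 by 3.79 ± 0.72 (adjusted p = 0.00872). Pcdh15 rose by 3.37 ± 0.75 (adjusted p = 0.0176) and Cspg4 by 3.12 ± 0.87 (adjusted p = 0.0417), with 3 libraries in each group. Olig1 had a log2 fold change of 2.35 ± 0.69 and missed the threshold (adjusted p = 0.0508), as did Neu4 (4.65 ± 1.95), Gpr17 (3.56 ± 1.58), Sox10 (2.50 ± 1.31) and Olig2 (1.30 ± 0.81). All 10 estimates were above 0 with a median of 3.46, beside a median of -0.01 over all genes tested, and the groups did not overlap for 7 of 10 genes, against 20.3% of all genes in that direction. In bulk libraries such as these, more cells of a type and more RNA per cell cannot be told apart.

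Among the lists of other cell types, neuroblast genes rose in ENB beside them. Of 15 mature oligodendrocyte genes 0 passed the threshold between ENB and NSC (edgeR, median log2 fold change -0.00), and their summed level was 1204, 3055 and 2749 CPM in ENB, against 328, 1114 and 3226 CPM in NSC. The 13 mural cell and fibroblast genes summed to 4.53, 6.01 and 2.63 CPM in ENB, with 8 to 10 of them at 0, against 18.9, 30.9 and 27.4 CPM in NSC. Ensheathing cell genes summed to 49.9 to 64.5 CPM in ENB, against 561 to 1356 CPM in NSC. Fabp7 is in both the ensheathing cell and the neural stem cell list, and its part in these sums was not tested. Of 9 microglia genes tested 0 passed in this edgeR fit, with a median of 3.04, and they summed to 58.6, 23.7 and 33.8 CPM in ENB, against 57.9, 51.1 and 69.9 CPM in NSC. Mature astrocyte genes were lower in ENB, with 6 of 10 past the threshold and a median of -3.24, and 13 of 14 neuroblast genes were higher, with a median of 2.37. The part of the neuroblast and astrocyte genes in the result was not tested.

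Leaving out NSC replicate 3, the library in which all 10 genes were highest, 6 genes passed: Sox10 (adjusted p = 0.0154) and Gpr17 (adjusted p = 0.0184) joined Matn4, Pdgfra, Lhfpl3 and Pcdh15, and Cspg4 dropped out (adjusted p = 0.0638, edgeR). Lhfpl3 and Matn4 passed whichever single library was left out. Pdgfra and Pcdh15 missed the threshold without NSC replicate 1, NSC replicate 2 or ENB replicate 3 (adjusted p up to 0.0692 and 0.0799, edgeR), and Cspg4 missed it in all 6 such fits (up to 0.145). Among libraries that share the second index sequence, a comparison chosen after seeing the data, the median difference of mean log2(CPM + 1) between ENB and NSC was 4.94 (2 libraries against 1) and 2.29 (1 against 2), with 10 of 10 genes above 0 in each.

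The sequences before the start sites of the 5 genes that rose in ENB are shown because these genes were called together in sorted cells. Each window holds the 250 bases upstream of a RefSeq start on GRCm38.p6, written 5′ to 3′, and capitals mark E-boxes (CANNTG, read on both strands because the motif is its own reverse complement), the short motif bound by basic helix-loop-helix factors such as Olig1 and Olig2.
Matn4 (chr2:164405161-164405410, minus strand): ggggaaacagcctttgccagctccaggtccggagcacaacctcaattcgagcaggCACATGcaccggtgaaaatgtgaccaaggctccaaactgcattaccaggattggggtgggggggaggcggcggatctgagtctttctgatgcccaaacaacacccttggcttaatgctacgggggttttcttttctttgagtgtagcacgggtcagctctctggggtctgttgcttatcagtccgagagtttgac
Pdgfra (chr5:75152001-75152250, plus strand): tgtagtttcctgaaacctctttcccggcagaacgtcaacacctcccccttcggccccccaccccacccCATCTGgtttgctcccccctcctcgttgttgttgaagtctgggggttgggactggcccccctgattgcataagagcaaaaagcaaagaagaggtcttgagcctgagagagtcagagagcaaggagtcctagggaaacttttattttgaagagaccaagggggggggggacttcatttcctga
Lhfpl3 (chr5:22745804-22746053, plus strand): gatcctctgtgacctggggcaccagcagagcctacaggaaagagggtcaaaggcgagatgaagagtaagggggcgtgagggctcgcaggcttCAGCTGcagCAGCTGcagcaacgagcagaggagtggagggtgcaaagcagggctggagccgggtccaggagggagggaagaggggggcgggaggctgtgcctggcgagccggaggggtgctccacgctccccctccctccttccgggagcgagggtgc
Pcdh15 (chr10:73821617-73821866, plus strand): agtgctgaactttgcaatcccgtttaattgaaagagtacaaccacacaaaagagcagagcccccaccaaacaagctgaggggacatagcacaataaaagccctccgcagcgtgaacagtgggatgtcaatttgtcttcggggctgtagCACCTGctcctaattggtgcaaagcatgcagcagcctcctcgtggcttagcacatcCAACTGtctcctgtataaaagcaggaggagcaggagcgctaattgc
Cspg4 (chr9:56864854-56865103, plus strand): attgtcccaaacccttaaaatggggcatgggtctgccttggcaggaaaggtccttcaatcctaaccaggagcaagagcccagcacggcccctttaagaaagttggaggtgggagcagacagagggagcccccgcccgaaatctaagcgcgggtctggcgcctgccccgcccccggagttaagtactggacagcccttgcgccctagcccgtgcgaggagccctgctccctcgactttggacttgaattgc
Matn4 and Pdgfra have 1 E-box in this window, Lhfpl3 has 2 CAGCTG copies 3 bases apart, Pcdh15 has CACCTG and CAACTG, and Cspg4 has none. The Pdgfra and Pcdh15 windows lie inside the gene spans given above, so they precede internal starts. A second Matn4 window, not shown, held 0 E-boxes. Windows were read for 7 genes, as Olig1 and Sox10 had none available and Gpr17 was left out. Of the 8 windows read, 5 held an E-box, against 66.2% of all 32851 windows of that length, so the share was near the background. A SOX-type motif (ACAAAG or ACAATG, either strand) was in 1 of 8 windows, that of Olig2, against 25.2% of all windows. A match is only a run of letters, and no binding was measured.

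From ENB to LNB, sorted cells gave no call among the 10 genes, against 3.77% of all genes (edgeR quasi-likelihood test). At an unadjusted p under 0.05 the count was also 0, and DESeq2 gave 0. The log2 fold changes ran from -1.45 ± 0.81 for Cspg4 to 0.97 ± 0.80 for Olig2, with 6 of 10 above 0 and a median of 0.29, beside 0.05 over all genes. The LNB libraries spread widely: the 10 genes summed to 594, 266 and 1622 CPM in LNB, against 840, 437 and 845 CPM in ENB. The count was 0 whichever single library was left out, and without LNB replicate 3 Cspg4 had a log2 fold change of -3.03 (adjusted p = 0.103, edgeR). Among libraries of the same second index the median difference pointed opposite ways, -1.62 with 0 of 10 genes above 0 (LNB replicate 2 against 2 ENB libraries) and 0.81 with 7 of 10 above 0 (LNB replicates 1 and 3 against 1 ENB library).

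Marker genes of other cell types were higher in LNB. Of the ensheathing cell genes 4 of 6 tested were higher in LNB than in ENB, with a median log2 fold change of 7.36, and of the astrocyte genes 7 of 10 were higher, with a median of 3.99. Summed, ensheathing cell genes, with Fabp7 of the stem cell list among them, had 1640, 134 and 5016 CPM in LNB, against 53.9, 49.9 and 64.5 CPM in ENB. LNB replicate 3 was highest of the LNB libraries in 8 of the 10 genes, while Pdgfra and Pcdh15 were highest in LNB replicate 1. The part of these cells in the levels of Sox10, which ensheathing cells also express, was not tested.

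Sorted Neuron libraries carried the highest summed level of the 10 genes, 1165, 968 and 1843 CPM, against 594, 266 and 1622 CPM in LNB. Lhfpl3 rose by 2.52 ± 0.67 (SE, adjusted p = 0.0266) and Pcdh15 by 2.52 ± 0.71 (adjusted p = 0.0342) on the log2 scale relative to LNB, which is 2 of 10 genes against 5.33% of all genes in that direction and 14.7% in either (edgeR). The other 8 genes had log2 fold changes from -1.14 for Olig2 to 1.38 for Neu4. Committed oligodendrocyte precursor genes gave 0 calls of 12 in either direction (median 0.82) and mature oligodendrocyte genes 0 of 15 (median 2.32, all 15 above 0), beside a median of -0.18 over all genes. Mature bulb neuron genes were higher in 6 of 10, with a median of 3.28, and neuroblast genes lower in 13 of 14, with a median of -3.14, and the part of these in the 2 calls was not tested. The mature oligodendrocyte genes summed to 2132, 7156 and 9809 CPM in Neuron, against 1837, 1651 and 3311 CPM in LNB.

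Both changes kept their size when single libraries were left out, with log2 fold changes of 2.26 to 2.87 for Lhfpl3 and 2.22 to 2.96 for Pcdh15, but not their calls. Pcdh15 missed the threshold in all 6 fits that left out 1 library (adjusted p up to 0.0968), and Lhfpl3 missed it without LNB replicate 1, LNB replicate 2 or Neuron replicate 3 (up to 0.0983, edgeR). Without LNB replicate 3, Cspg4 passed (adjusted p = 0.0344) beside Lhfpl3. LNB replicate 2, the 1 LNB library that shares its second index with the 3 Neuron libraries, gave a median difference of 2.34. In it 10 of 10 differences were above 0. This library had the lowest sum of the 10 genes among the LNB libraries, 266 CPM. In the whole fit 7 of 10 estimates were above 0, with a median of 1.10.

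In ribosome-bound mRNA, Pdgfra and Gpr17 rose in ENB relative to NSC, 2 of 10 genes against 3.44% of all 19066 genes tested in that direction and 8.28% in either. Pdgfra had 55.3 and 51.4 CPM in ENB immunoprecipitates, against 9.13 and 9.38 CPM in NSC immunoprecipitates. The libraries of each stage lay close together and far from those of the other stage, and the log2 fold change was 2.51 ± 0.43 (adjusted p = 0.00431, edgeR). Gpr17 had 76.3 and 83.6 CPM in ENB, against 10.7 and 25.3 CPM in NSC, a log2 fold change of 2.12 ± 0.54 (adjusted p = 0.0271, edgeR). The SVZ no-HA controls lay between the 2 stages, at 29.8, 22.7 and 14.1 CPM for Pdgfra and 39.4, 41.9 and 37.7 CPM for Gpr17. Against these controls neither gene passed in ENB (adjusted p = 0.124 and 0.375, edgeR). In NSC Pdgfra was lower than the controls (adjusted p = 0.0365) and Gpr17 missed the threshold (adjusted p = 0.122, edgeR). Neu4 (1.52 ± 0.46, adjusted p = 0.0539), Cspg4 (1.75 ± 0.60, adjusted p = 0.0798) and Olig1 (1.01 ± 0.37, adjusted p = 0.0993) missed the threshold in this edgeR fit, and Olig2 (-0.14 ± 0.54) and Sox10 (0.26 ± 0.35) were near 0.

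Pdgfra passed whichever single library was left out (log2 fold change 2.45 to 2.57), whereas Gpr17 missed the threshold without NSC replicate 1, ENB replicate 1 or ENB replicate 2 (adjusted p up to 0.156, edgeR). Within the second index shared by 1 ENB and 2 NSC libraries the median difference was 1.26. Mature oligodendrocyte genes moved with them: 4 of 15 were higher in ENB, with a median of 0.89, and they summed to 21741 and 20881 CPM in ENB immunoprecipitates, against 9402 and 8482 CPM in NSC immunoprecipitates. Mbp, which encodes myelin basic protein, had a log2 fold change of 1.14 ± 0.30. The no-HA SVZ controls held as much of the mature genes, 18614, 19663 and 22694 CPM.

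From ENB to LNB, ribosome-bound mRNA gave the largest count. Of the 10 genes 7 fell, against 6.05% of all genes in that direction, and Pcdh15 rose, against 6.81%, with 12.9% called in either (edgeR). This fit has no term for the animals that ENB and LNB libraries share. With such a term fewer of these calls held, as given below. Olig1 had 70.4, 62.4 and 51.3 CPM in LNB immunoprecipitates, against 217 and 183 CPM in ENB immunoprecipitates, and fell by 1.67 ± 0.33 on the log2 scale (adjusted p = 0.00297). Pdgfra had 22.0, 12.0 and 12.9 CPM in LNB, against 55.3 and 51.4 CPM in ENB, and fell by 1.74 ± 0.36 (adjusted p = 0.0045). For both genes every LNB library was below every ENB library.

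The other 5 that fell had log2 fold changes of -1.99 ± 0.53 for Cspg4 (adjusted p = 0.0195), -1.75 ± 0.50 for Olig2 (adjusted p = 0.0286), -1.63 ± 0.47 for Gpr17 (adjusted p = 0.0303), -1.48 ± 0.41 for Neu4 (adjusted p = 0.0248) and -1.21 ± 0.32 for Sox10 (adjusted p = 0.0184, all edgeR). Sox10 had 20.96, 19.1 and 16.6 CPM in LNB, against 48.5 and 40.8 CPM in ENB. Pcdh15 had 48.2, 38.1 and 31.1 CPM in LNB, against 22.3 and 10.4 CPM in ENB, and rose by 1.29 ± 0.35 (adjusted p = 0.0209). Lhfpl3 (0.87 ± 0.42) and Matn4 (-0.37 ± 0.63) did not pass.

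ENB and LNB replicates 1 and 2 of the immunoprecipitates came from the same animals, and the block for these animals left 3 of the 8 calls: Olig1 (-1.56, adjusted p = 0.0312), Pdgfra (-1.68, adjusted p = 0.0341) and Pcdh15 (1.51, adjusted p = 0.0199, edgeR). Leaving out single libraries left 2 to 4 calls. Olig1 and Pdgfra were among them each time, Neu4 and Gpr17 in none, and Pcdh15 missed the threshold without ENB replicate 2, LNB replicate 1 or LNB replicate 2 (adjusted p up to 0.201). Cspg4, Sox10 and Olig2 each held in 1 of the 5 fits (adjusted p up to 0.171, 0.129 and 0.135, edgeR). Within the second index shared by 3 LNB libraries and 1 ENB library the median difference was -1.49.

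Genes of several cell types moved beside them in this comparison. All 15 mature oligodendrocyte genes fell in LNB relative to ENB immunoprecipitates, with a median of -3.20, beside 0.08 over all genes, and they summed to 2611, 1941 and 2180 CPM in LNB, against 21741 and 20881 CPM in ENB. Opalin, a myelin membrane protein, fell by 3.87 ± 0.37 and Mog fell by 3.65 ± 0.32. Of 12 genes of committed precursors 3 fell, among them Myrf, the regulator of myelin genes, with a log2 fold change of -3.15 ± 0.43, and Enpp6, with -2.92 ± 0.44, and Fyn rose. Outside the lineage 6 of 10 microglia genes fell, with a median of -1.53, while 10 of 14 neuroblast genes and 7 of 10 mature bulb neuron genes rose, with medians of 1.46 and 0.98. Their part in the result was not tested. The fall of the mature genes is also present between the controls of the 2 tissues, where 14 of 15 were lower in OB than in SVZ with a median of -2.22. Between these controls Pcdh15 was higher in OB, by 1.46 ± 0.30 (adjusted p = 0.00314, edgeR). There the 7 precursor genes that fell had estimates below 0, and 0 of them passed. The part of the tissue in the 8 calls was not tested.

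From LNB to Neuron, ribosome-bound Gpr17 fell, the only call among the 10 genes in that direction, against 3.75% of all genes, with 4.13% called in either (edgeR). It had 9.02 and 3.37 CPM in Neuron immunoprecipitates, against 28.1, 22.4 and 25.3 CPM in LNB immunoprecipitates, a log2 fold change of -2.03 ± 0.52 (adjusted p = 0.0382). Pcdh15 had 20.7 and 14.4 CPM in Neuron, against 48.2, 38.1 and 31.1 CPM in LNB, and missed the threshold (-1.16 ± 0.34, adjusted p = 0.0662, edgeR). Of the 10 estimates 9 were below 0, with a median of -0.92, beside -0.15 over all genes. Gpr17 missed the threshold without LNB replicate 1, 2 or 3 or Neuron replicate 2 (adjusted p up to 0.275). No second index is shared between these 2 groups, and with the index as a term over all immunoprecipitates the call was lost (-0.83 ± 0.72, adjusted p = 0.548, edgeR).

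**Figure D2:**
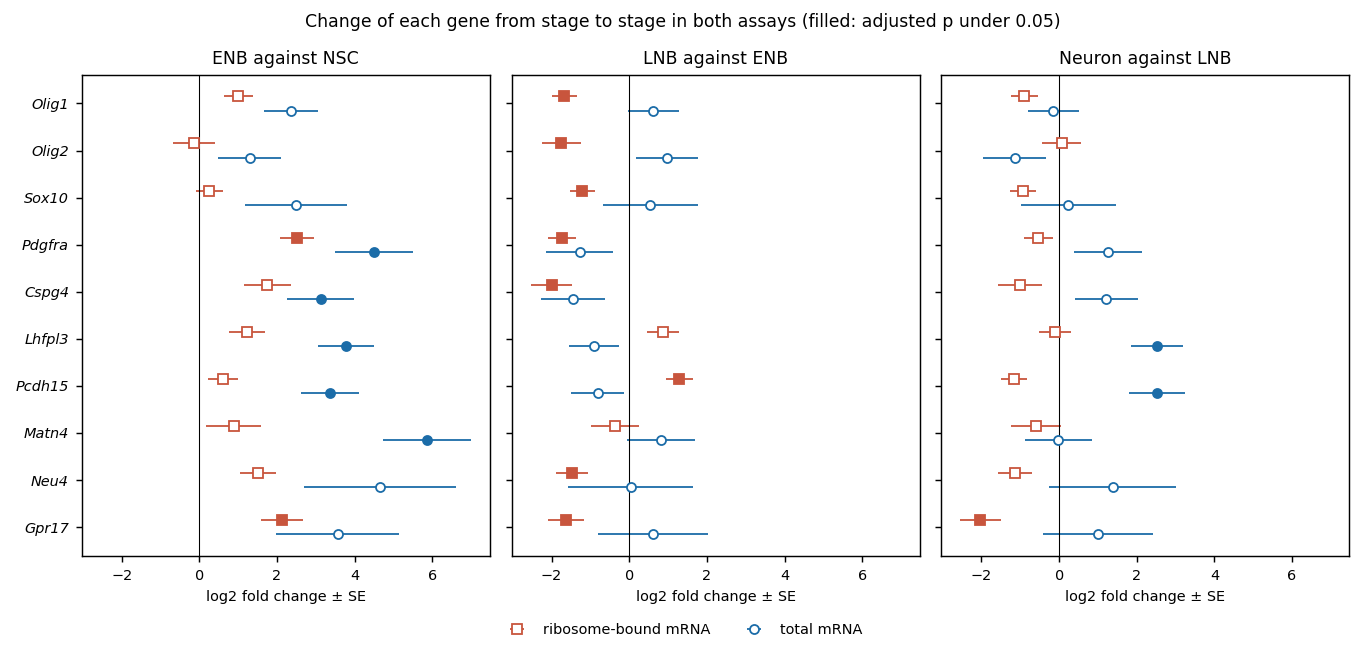
Log2 fold change ± SE of each gene at the 3 steps, in ribosome-bound mRNA (red squares) and total mRNA (blue circles), filled where the adjusted p is under 0.05. At the step to ENB all 10 total mRNA estimates lie above 0, from 1.30 to 5.87, and at the step to LNB 8 of 10 ribosome-bound estimates lie below 0 while the total mRNA estimates lie between -1.45 and 0.97.

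Whether a change at a step differed between ribosome-bound and total mRNA was tested with an interaction term over 21 libraries. At the step from NSC to ENB 0 of 10 genes passed, against 2.81% of all genes, with 3 at an unadjusted p under 0.05 (edgeR) and 1 by DESeq2. Shares in this paragraph are those at the adjusted threshold in edgeR. None was taken at the unadjusted threshold, and DESeq2 counts over all genes are in the closing section. All 10 estimates were below 0, from -4.83 ± 1.46 for Matn4 (adjusted p = 0.085) to -1.18 ± 0.88 for Olig1. Without NSC total mRNA replicate 3, 3 genes passed: Sox10 (adjusted p = 0.0125), Pcdh15 (-3.86 ± 0.89, adjusted p = 0.0351) and Gpr17 (adjusted p = 0.0429, edgeR). The count was 0 without any other single library. At the step from ENB to LNB 0 of 10 passed, against 6.15% of all genes, with 3 at an unadjusted p under 0.05 (edgeR) and 2 by DESeq2. Olig2 (-2.83 ± 1.05) and Olig1 (-2.40 ± 0.82) had the lowest estimates and Pcdh15 the highest (2.00 ± 0.91). Without LNB total mRNA replicate 2, Olig1 (-2.79 ± 0.62, adjusted p = 0.00699) and Olig2 (-3.25 ± 0.85, adjusted p = 0.0188, edgeR) passed.

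At the step from LNB to Neuron Pcdh15 differed between the assays, 1 of 10 genes against 1.69% of all genes in that direction and 3.15% in either. It rose in total mRNA by 2.52 ± 0.71 on the log2 scale, whereas the ribosome-bound estimate was -1.16 ± 0.34, and the difference was -3.68 ± 0.93 (adjusted p = 0.0401, edgeR). Lhfpl3 had a difference of -2.64 ± 0.84 that missed the threshold (adjusted p = 0.0922). The Pcdh15 call held in 3 of 11 fits that left out 1 library (difference -4.16 to -3.40, adjusted p up to 0.214, edgeR). It was lost without LNB total mRNA replicate 2 or 3, any LNB immunoprecipitate, Neuron total mRNA replicate 1 or either Neuron immunoprecipitate. Sorted cells and homogenised tissue also differ in which cells they contain, and their part in these differences was not tested.

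The no-HA controls held all 10 genes. In the SVZ controls Olig1 had 149, 84.9 and 88.1 CPM and Gpr17 39.4, 41.9 and 37.7 CPM, and in the OB controls Olig1 had 100.0, 103 and 43.6 CPM and Pcdh15 87.6, 84.1 and 113 CPM. The 10 genes summed to 308 to 441 CPM in the SVZ controls and 299 to 441 CPM in the OB controls, so an immunoprecipitate has to be read against the control of its tissue.

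Against the SVZ control, NSC immunoprecipitates were lower in Pdgfra and Pcdh15, 2 of 10 genes against 6.59% of all genes in that direction and 15.3% in either (edgeR). Pdgfra had 9.13 and 9.38 CPM in NSC immunoprecipitates, against 29.8, 22.7 and 14.1 CPM in the controls (log2 fold change -1.30 ± 0.39, adjusted p = 0.0365). Pcdh15 had 11.2 and 10.0 CPM in NSC immunoprecipitates, against 22.7, 34.8 and 37.9 CPM in the controls (-1.63 ± 0.36, adjusted p = 0.00742, edgeR). The groups did not overlap for either gene. In the same comparison 7 of 15 mature oligodendrocyte genes fell. Pdgfra missed the threshold in 4 of 5 fits that left out 1 library (adjusted p up to 0.153), all but that without SVZ control replicate 3, and Pcdh15 without NSC replicate 2 (adjusted p = 0.0679, edgeR). The 2 NSC libraries and 1 control of the same second index gave a median difference of -0.85.

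ENB immunoprecipitates gave no call among the 10 genes against the SVZ control, where 1.52% of all genes passed (edgeR). At an unadjusted p under 0.05 there were 4, of which Pdgfra, Neu4 and Olig1 were higher and Pcdh15 lower, and DESeq2 called 1. The 1.52% does not apply to these 2 rules. No share over all genes was taken at the unadjusted threshold, and the DESeq2 count over all genes is in the closing section. Pdgfra had 55.3 and 51.4 CPM in ENB immunoprecipitates, against 29.8, 22.7 and 14.1 CPM in the controls, a log2 fold change of 1.21 ± 0.36 (adjusted p = 0.124, edgeR). The groups did not overlap. Of the 10 estimates 8 were above 0 with a median of 0.90, beside 0.02 for the mature oligodendrocyte genes, of which 0 of 15 passed, and -0.04 over all genes. In the same comparison 9 of 14 neuroblast genes rose, with Dcx at 2.71 ± 0.35. Within the second index shared by 1 library of each group the median difference was 0.46.

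LNB immunoprecipitates were lower than the OB control in Pcdh15, 1 of 10 genes against 3.06% of all genes in that direction and 10.1% in either (edgeR). It had 48.2, 38.1 and 31.1 CPM in LNB immunoprecipitates, against 87.6, 84.1 and 113 CPM in the controls (log2 fold change -1.19 ± 0.29, adjusted p = 0.0228). The other genes ran from -0.92 for Matn4 to 0.46 for Neu4. The call was lost without LNB replicate 2, LNB replicate 3 or OB control replicate 3 (adjusted p up to 0.121, edgeR). Of the mature oligodendrocyte genes 7 of 15 fell (median -0.91) and 12 of 14 neuroblast genes rose (median 1.67). Within the second index shared by 3 LNB libraries and 2 controls the median difference of the 10 genes was -0.71.

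Neuron immunoprecipitates had all 10 estimates below the OB control, and 4 genes fell, against 15.7% of all genes in that direction and 27.4% in either (edgeR). Pcdh15 had 20.7 and 14.4 CPM in Neuron immunoprecipitates, against 87.6, 84.1 and 113 CPM in the controls, and fell by 2.35 ± 0.36 (adjusted p = 0.000421). Sox10 had 11.0 and 8.85 CPM in Neuron immunoprecipitates, against 42.4, 30.7 and 30.6 CPM in the controls, and fell by 1.71 ± 0.34 (adjusted p = 0.00241, edgeR). These 2 genes passed whichever library was left out.

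Gpr17 fell by 1.74 ± 0.52 (adjusted p = 0.0223) and Olig1 fell by 1.23 ± 0.35 (adjusted p = 0.0172, edgeR), and both missed the threshold without OB control replicate 1 or Neuron replicate 2 (adjusted p up to 0.184 and 0.15). Lhfpl3 stood apart with -0.14 ± 0.40. It had 64.3 and 45.6 CPM in Neuron immunoprecipitates, against 78.3, 81.9 and 31.9 CPM in the controls, so the groups overlapped. Of 20 other precursor genes 11 fell, of 15 mature oligodendrocyte genes 10, of 10 astrocyte genes 10 and of 13 mural and fibroblast genes 9, with medians from -1.50 to -2.76, beside a median of -1.30 for the 10 genes and -0.21 over all genes. Within the second index shared by 1 library of each group the median difference of the 10 genes was -0.26, closer to 0 than in the whole comparison. The control of this pair is OB control replicate 3, the only one marked Dxc and 4 wpi like the Neuron libraries. Of the 4 genes called, Olig1 (-0.13) and Gpr17 (0.11) differed little in this pair, and Sox10 (-1.39) and Pcdh15 (-2.39) were lower.

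Between the no-HA controls, Matn4, Pcdh15 and Lhfpl3 were higher in the OB than in the SVZ, 3 of 10 genes against 5.65% of all genes in that direction and 11.8% in either (edgeR). Pcdh15 had 87.6, 84.1 and 113 CPM in the OB, against 22.7, 34.8 and 37.9 CPM in the SVZ (log2 fold change 1.46 ± 0.30, adjusted p = 0.00314), and it passed whichever library was left out. Matn4 rose by 1.89 ± 0.59 (adjusted p = 0.0463) and Lhfpl3, whose groups overlapped, by 1.31 ± 0.37 (adjusted p = 0.0294, edgeR). Matn4 held only without OB control replicate 3 and Lhfpl3 only without SVZ control replicate 1 or OB control replicate 3 (adjusted p otherwise up to 0.16 and 0.133). The other 7 estimates were below 0, from -0.97 for Neu4 and Gpr17 to -0.06 for Pdgfra. Within the second index shared by 1 library of each tissue the median difference was -0.44.

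**Figure D3:**
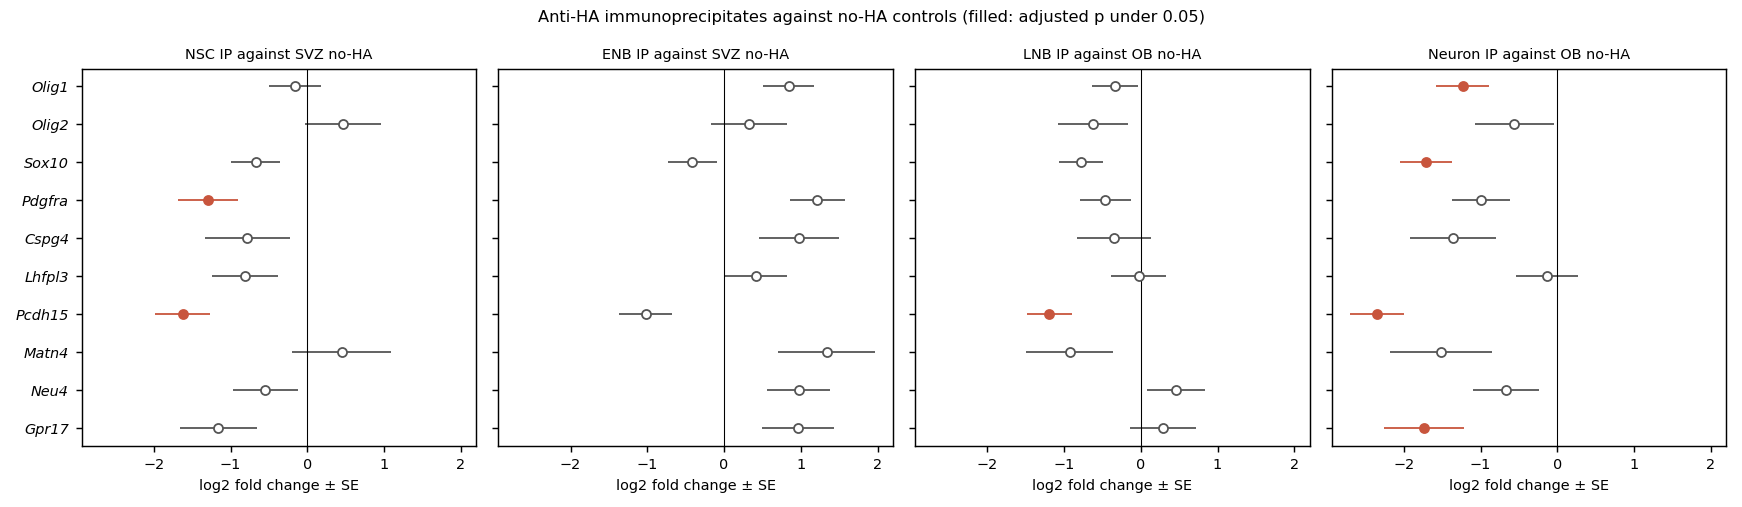
Log2 fold change ± SE of each gene in the 4 kinds of immunoprecipitate against the no-HA control of the same tissue, filled where the adjusted p is under 0.05. NSC, LNB and Neuron immunoprecipitates lie mostly below their controls, with medians of -0.73, -0.41 and -1.30. ENB immunoprecipitates lie mostly above, with a median of 0.90 and no gene past the threshold.

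The 20 other genes known from oligodendrocyte precursors moved in both directions in sorted cells. In sorted ENB against NSC, 4 of 20 rose and 1 fell, with a median of 0.74. C1ql1, a secreted complement-like protein, rose by 3.75 ± 0.95, Cacng4, an AMPA receptor auxiliary subunit, by 2.67 ± 0.45, and Vcan, a matrix proteoglycan, by 2.65 ± 0.42. Vcan averaged 377 CPM in ENB total mRNA and 440 CPM in LNB total mRNA, against 52.4 CPM in Neuron total mRNA, where it fell by 3.12 ± 0.43 relative to LNB. In sorted LNB against ENB, 1 of 20 fell (Dll3, a Notch ligand, at -3.36 ± 0.70), and in sorted Neuron against LNB 1 of 20 rose (Megf11, by 1.94 ± 0.36) and 3 fell. In ribosome-bound LNB against ENB 4 of 20 fell, among them Sox6 at -2.11 ± 0.37, and 0 rose.

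Genes of committed precursors also split. In sorted ENB against NSC 0 of 12 rose and 2 fell, Tcf7l2 at -3.73 ± 0.44 and Nkx6-2 at -3.46 ± 0.90, with a median of 0.02. Tcf7l2, a Wnt pathway factor that is also known outside the lineage, averaged 9.51 CPM in ENB, against 127 CPM in NSC. In ribosome-bound Neuron against LNB 3 of 12 fell, among them Enpp6 at -2.12 ± 0.51, and mature oligodendrocyte genes fell in 5 of 15.

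The ligands and the other receptors of the platelet-derived growth factor family did not rise with Pdgfra. In sorted ENB against NSC 0 of 6 rose and Pdgfa, the ligand of Pdgfra, fell by 3.15 ± 0.77 (adjusted p = 0.0248, edgeR). Pdgfa averaged 3.21 CPM in ENB, against 28.7 CPM in NSC. Pdgfrb, the receptor of mural cells, averaged 2.02 CPM in ENB total mRNA, against 36.0 CPM in NSC total mRNA, and did not pass (-4.18 ± 1.55, adjusted p = 0.106). In Neuron immunoprecipitates against the OB control Pdgfrb fell by 3.92 ± 0.78 and Pdgfd fell by 5.41 ± 1.43.

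**Figure D4:**
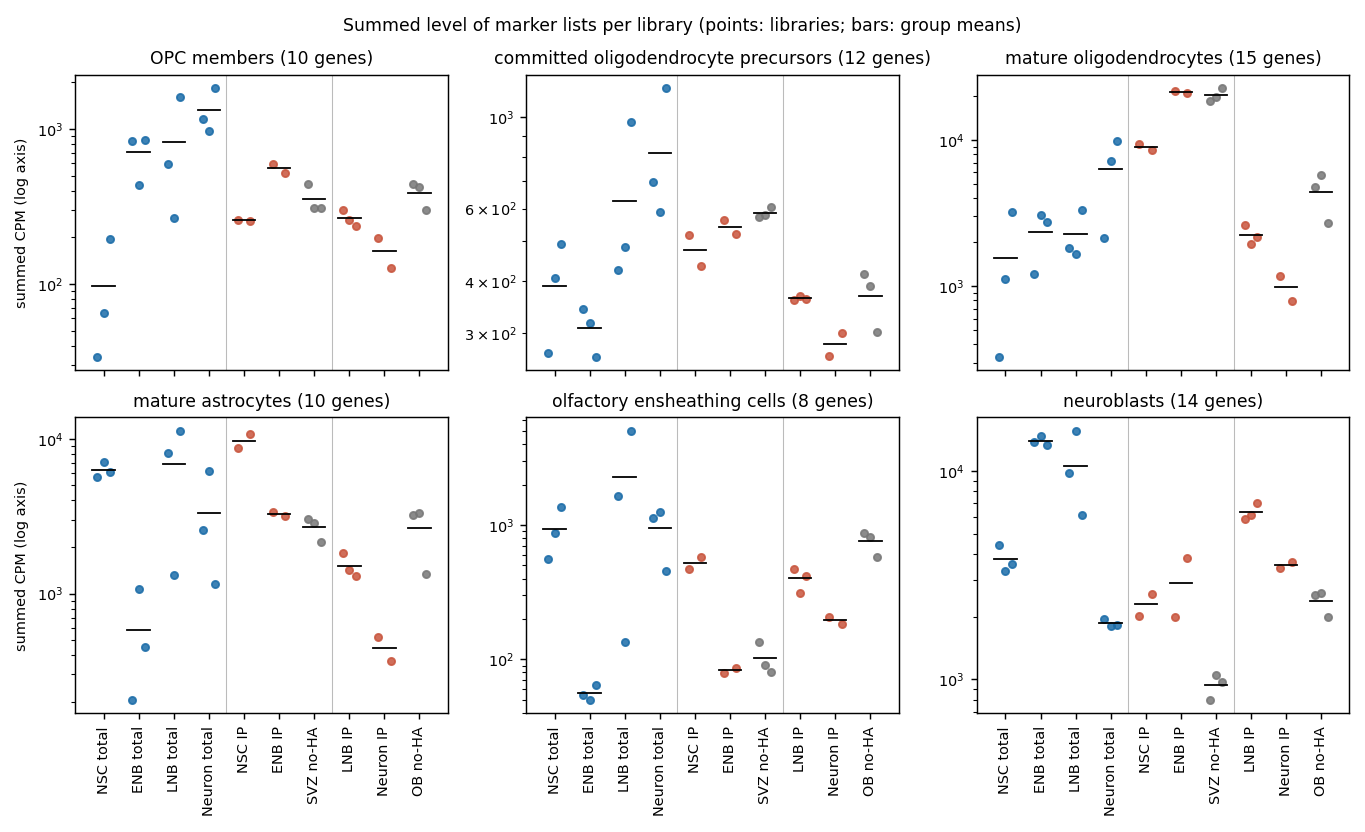
Summed CPM of 6 gene lists in every library (log axis; total mRNA in blue, immunoprecipitates in red, no-HA controls in grey; bars are group means). The 10 precursor genes sum to 34 to 194 CPM in NSC total mRNA and 266 to 1843 CPM in the later stages, and the mature oligodendrocyte genes are highest in the ENB immunoprecipitates and SVZ controls.

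The genes whose pattern over the 10 groups was nearest to each member were sought among 20673 other genes, as the smallest root mean square difference of centred group means of log2(CPM + 1). The nearest to Olig1 was Zfp488 (difference 0.45), a zinc finger factor of the lineage, to Olig2 Fam234a (0.41) and Nkx2-2 (0.42), and to Sox10 Pllp (0.46), which encodes plasmolipin of myelin membranes. Pdgfra and Cspg4 shared Tmem255b (0.48 and 0.42) and Susd5 (0.68 and 0.42) among their nearest 3. Lhfpl3 and Pcdh15 shared Gria4, an AMPA receptor subunit (0.56 and 0.61). The first places of Matn4 (Rbpjl, 0.59), Gpr17 (Lims2, 0.70) and Lhfpl3 (A930003O13Rik, 0.53) were taken by the genes that overlap them. Neu4 was nearest to Pllp (0.50) and Pcdh15 to Gm37396 (0.53). L1cam was among the nearest 3 of Sox10, Pdgfra and Neu4 (0.55, 0.66 and 0.51), and Robo2 of the neuroblast list among those of Matn4 (0.80). Of the 30 places, 6 were taken by genes of the precursor and oligodendrocyte lists. For scale, the members' own patterns had a root mean square of 0.87 to 1.85.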

How the data were processed

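Total mRNA of sorted cells, anti-HA immunoprecipitates and no-HA immunoprecipitates were measured as Smart-seq2 libraries. The raw counts deposited by the authors are whole numbers of reads for each Ensembl gene, made with a tool not given in the sources used here. The expected counts deposited by the authors are estimated counts that need not be whole, and the TPM values deposited by the authors are scaled per transcript length and library. Per the submitters' processing notes, RSEM 1.2.21, Bowtie2 2.2.6 and GRCm38 were used. A symbol was found for 44548 of 45195 genes in RefSeq's GRCm38.p6 table, and the 92 TPM rows that lack a gene ID were left out.

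Raw counts were tested in R 4.3.3 with edgeR 4.0.16 (TMM, filterByExpr, quasi-likelihood F test, Benjamini-Hochberg over all genes, threshold 0.05) in 3 fits: 12 total mRNA libraries, 15 immunoprecipitates and 21 libraries of both for the interaction, 14 comparisons in all. Standard errors are those implied by the F statistic. The code was tested on simulated data. Alternatives were DESeq2 1.42.0, RLE factors, no filter, expected counts (rounded), the compared groups alone, a replicate block, the second index as a term and each library left out. The counts limit precision at low levels: 3 counts, taken as the limit that a count of 0 allows, are 0.181 to 0.563 CPM per library.

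The 10 genes and all lists were chosen with earlier results of these data known. Named are all 10 genes in each comparison, up to 4 genes of each other list (past the threshold, groups not overlapping, largest change), Dcx, Nr2e1 and Rpl22 as label checks, and the 3 nearest patterns per gene. Some genes that this rule names are not reported here. Nothing says that all replicates are separate animals, so p-values measure the spread between these samples. The 24 replicate pairs had Spearman correlations of 0.88 to 0.945 and 0 were identical. Same-numbered libraries of different groups correlated at -0.158 to 0.0742 (total mRNA, 18 pairs) and -0.107 to 0.155 (immunoprecipitates, 33 pairs) after group means were removed. The descriptions give ENB and LNB immunoprecipitates 1 and 2 the same animals, and in total mRNA ENB 2 with LNB 3 and ENB 3 with LNB 2.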

Additional observations from a re-analysis of the deposited data

Results flagged for a closer look

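The change of Pcdh15 from LNB to Neuron differed between the assays by a test of the difference itself, the interaction term: -3.68 ± 0.93 on the log2 scale (adjusted p = 0.0401, edgeR quasi-likelihood test). Total mRNA had 159, 94.5 and 108 CPM in Neuron, against 30.6, 19.4 and 10.6 CPM in LNB. Ribosome-bound mRNA had 20.7 and 14.4 CPM in Neuron, against 48.2, 38.1 and 31.1 CPM in LNB. All 5 of these immunoprecipitates were below the OB no-HA controls, which had 87.6, 84.1 and 113 CPM. The call held in 3 of 11 fits that left out 1 library.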

How the results depend on the processing

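Of 997 log2 changes of the 10 genes recomputed under other settings 35 took the other sign, and of 910 with 1 library left out 35 did; none of these belongs to a call of the 10 genes. Groups of 2 or 3 libraries limit every call, and 1 count is 0.0604 to 0.111 CPM in NSC, where several genes were at or near 0. The replicate number follows shared animals for ENB and LNB immunoprecipitates 1 and 2, and elsewhere is only a number. RLE factors shifted log2 changes by a median of 0.16 in total Neuron, by -0.14 in bound LNB and by -0.16 in LNB over control, and moved the share of calls that were higher to 48.4% (TMM 36.3%), 40.2% (TMM 52.9%) and 46.5% (TMM 69.6%) in these. Below, total and bound name each stage against the one before it in total and ribosome-bound mRNA, an interaction is the difference of the 2, and over control is against the no-HA control of the tissue. For these values the cause was not tested.

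With RLE factors, signs turned for Olig1 0.011 and Matn4 0.14 in total Neuron. With DESeq2, calls among the 10 genes numbered 6 in bound ENB, 2 in bound Neuron, 1 in ENB over control, 2 in LNB over control, 7 in Neuron over control, 1 in the ENB interaction, 2 in the LNB interaction and 2 in the Neuron interaction. With DESeq2, calls over all genes numbered 3358 in total ENB, 1891 in total LNB, 3873 in total Neuron, 2914 in bound ENB, 1755 in bound Neuron, 863 in ENB over control, 3042 in LNB over control, 1568 in the ENB interaction, 2263 in the LNB interaction and 1740 in the Neuron interaction. With DESeq2, signs turned for Olig1 0.0097 and Matn4 0.13 in total Neuron. With no filter on low counts, calls among the 10 genes numbered 5 in bound ENB, 3 in bound Neuron, 1 in the ENB interaction and 2 in the Neuron interaction. With no filter on low counts, calls over all genes numbered 2400 in bound ENB, 1480 in bound Neuron and 636 in ENB over control. With no filter on low counts, signs turned for Neu4 -0.012 in total LNB and Olig1 0.011 and Matn4 0.15 in total Neuron. With expected counts, calls among the 10 genes numbered 0 in total Neuron, 5 in bound LNB, 0 in bound Neuron, 1 in OB over SVZ and 0 in the Neuron interaction. With expected counts, signs turned for Olig2 -0.27 in bound Neuron. Fitted on the compared groups alone, calls among the 10 genes numbered 4 in bound ENB, 2 in bound Neuron, 1 in NSC over control, 3 in LNB over control, 2 in Neuron over control, 1 in the ENB interaction and 2 in the Neuron interaction. Fitted on the compared groups alone, calls over all genes numbered 4110 in total ENB, 203 in total LNB, 1290 in total Neuron, 918 in bound ENB, 5222 in bound LNB, 1406 in bound Neuron, 102 in ENB over control, 3326 in LNB over control, 1796 in Neuron over control and 1097 in the ENB interaction. Fitted on the compared groups alone, signs turned for Matn4 0.12 in total Neuron. With the replicate block, calls among the 10 genes numbered 2 in bound Neuron. With the replicate block, calls over all genes numbered 205 in total LNB and 193 in ENB over control. With the replicate block, signs turned for Sox10 -0.12, Neu4 -0.16 and Gpr17 -0.79 in total LNB, Olig1 0.13 and Matn4 0.74 in total Neuron, Olig2 -0.16 in bound Neuron and Lhfpl3 0.092 in LNB over control. With the second index as a term, calls among the 10 genes numbered 1 in total Neuron, 0 in bound Neuron, 2 in Neuron over control and 0 in the Neuron interaction. With the second index as a term, calls over all genes numbered 155 in total LNB, 1176 in NSC over control, 43 in the ENB interaction, 449 in the LNB interaction and 300 in the Neuron interaction. With the second index as a term, signs turned for Sox10 -0.41, Matn4 -0.56, Neu4 -0.24 and Gpr17 -0.24 in total LNB, Olig1 0.54 and Matn4 1.74 in total Neuron, Olig1 0.34, Pdgfra 0.019 and Lhfpl3 1.14 in bound Neuron, Olig2 -0.22 in NSC over control, Olig2 -0.24 and Lhfpl3 -0.32 in ENB over control, Olig2 0.23 and Lhfpl3 0.82 in Neuron over control and Cspg4 0.096 and Matn4 0.76 in the LNB interaction. With the replicate block by shared animals, added after seeing the data, calls among the 10 genes numbered 3 in bound LNB. With the replicate block by shared animals, added after seeing the data, calls over all genes numbered 1217 in bound LNB. With the replicate block by shared animals, added after seeing the data, signs turned for Matn4 -0.24, Neu4 -0.95 and Gpr17 -0.11 in total LNB. With each library left out in turn, calls among the 10 genes numbered 2 to 6 in total ENB, 0 to 2 in total Neuron, 1 to 2 in bound ENB, 2 to 4 in bound LNB, 0 to 2 in bound Neuron, 0 to 2 in NSC over control, 0 to 1 in LNB over control, 2 to 6 in Neuron over control, 1 to 3 in OB over SVZ, 0 to 3 in the ENB interaction, 0 to 2 in the LNB interaction and 0 to 1 in the Neuron interaction. Calls over all genes then numbered 721 to 892 in total ENB, 96 to 1643 in total LNB, 1565 to 2337 in total Neuron, 354 to 962 in bound ENB, 1271 to 1621 in bound LNB, 347 to 1199 in bound Neuron, 1050 to 3372 in NSC over control, 1 to 224 in ENB over control, 95 to 1842 in LNB over control, 2593 to 4772 in Neuron over control, 56 to 459 in the ENB interaction, 321 to 2302 in the LNB interaction and 78 to 845 in the Neuron interaction. Log2 changes whose sign depended on a single library ran as follows. In total LNB they were Olig1 -0.24 to 1.01, Sox10 -0.55 to 1.195, Matn4 -0.94 to 1.28, Neu4 -1.66 to 0.68 and Gpr17 -1.18 to 1.24. In total Neuron they were Olig1 -0.49 to 0.70, Sox10 -0.067 to 1.31 and Matn4 -0.58 to 1.74. In bound ENB they were Olig2 -0.36 to 0.12, Sox10 -0.11 to 0.74 and Pcdh15 -0.028 to 1.04. In bound LNB they were Matn4 -0.78 to 0.24. In bound Neuron they were Olig2 -0.26 to 0.29, Lhfpl3 -0.40 to 0.11 and Matn4 -2.08 to 0.12. In NSC over control they were Olig1 -0.30 to 0.14 and Matn4 -0.76 to 1.12. In LNB over control they were Lhfpl3 -0.36 to 0.18 and Gpr17 -0.11 to 0.62. In Neuron over control they were Lhfpl3 -0.47 to 0.094. In OB over SVZ they were Pdgfra -0.35 to 0.21. In the LNB interaction they were Cspg4 -1.10 to 0.93, Matn4 -1.76 to 0.47 and Neu4 -2.21 to 0.071. In the Neuron interaction they were Matn4 -2.35 to 0.0092.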
